A study of Mus musculus with 5 samples.

Results

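The AP-1 and BATF transcription factors are a group of 10 mouse genes: Fos, Fosb, Fosl1, Fosl2, Jun, Junb, Jund, Batf, Batf3 and Atf3. They were taken by their NCBI gene identifiers from a table of 27179 genes, and all 10 were found. Transcript counts were available for 3 libraries of ILC3 and 2 libraries labelled CD4 T. All were described as coming from wild type mice of the strain C57BL/6. Ages, sexes and tissue of origin are not in the labels. ILC3 are group 3 innate lymphoid cells, which lack rearranged antigen receptors and make IL-22 at mucosal surfaces, and were sorted here as CD45-positive, CD3-negative, CD127-positive cells carrying a green fluorescent lineage reporter. CD4 T stands for cells sorted as CD45+CD3+CD4+. The series asks how innate lymphoid cells support regulatory T cells of the intestine through interleukin-2, a gene whose promoter is a classic target of AP-1. The design text names 3 mice, but no label ties a library to a mouse, so the p-values rest on differences among these libraries alone and those may be technical.

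All 10 proteins carry a bZIP domain, a basic stretch that contacts DNA followed by a leucine zipper that joins a pair of such proteins. FOS proteins cannot pair with themselves and need a JUN partner, whereas JUN proteins pair with each other or with FOS, BATF or ATF proteins. BATF and BATF3 consist of little more than the bZIP domain; with a JUN partner they bind beside IRF4 or IRF8 at composite elements, and BATF is required for Th17 cells in mice. ATF3 is a stress-induced factor that often represses its targets. Transcripts of Fos, Fosb, Jun, Junb and Atf3 are immediate early, that is, they are made within minutes of a stimulus and decay quickly, and cell handling is known to raise them.

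The promoters of 5 members are shown. They are Batf3, Atf3, Fosl2 and Batf, whose ILC3 libraries all lay above the CD4 T libraries after TMM scaling, and Fos, whose libraries did not. Fosb also had all ILC3 libraries above and is not among those shown. Each sequence is the 250 bases before the annotated start in RefSeq (GRCm38.p6), written 5′ to 3′ on the strand of the gene, at chr1:191098164-191098413 (+) for Batf3, chr1:191183334-191183583 (-) for Atf3, chr5:32136222-32136471 (+) for Fosl2, chr12:85686470-85686719 (+) for Batf and chr12:85473640-85473889 (+) for Fos. Capitals mark the ETS core CGGAAG and the short cyclic AMP response element TGACGT, each on either strand.
Batf3: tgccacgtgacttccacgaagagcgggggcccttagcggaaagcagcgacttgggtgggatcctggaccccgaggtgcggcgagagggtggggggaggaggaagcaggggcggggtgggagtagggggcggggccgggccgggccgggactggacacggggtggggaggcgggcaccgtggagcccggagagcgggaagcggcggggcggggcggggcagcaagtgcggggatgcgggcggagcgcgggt
Atf3: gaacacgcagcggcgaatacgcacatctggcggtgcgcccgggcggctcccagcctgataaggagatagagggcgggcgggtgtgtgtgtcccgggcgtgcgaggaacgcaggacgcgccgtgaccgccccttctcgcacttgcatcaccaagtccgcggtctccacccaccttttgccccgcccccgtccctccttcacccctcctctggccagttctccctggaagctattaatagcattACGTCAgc
Fosl2: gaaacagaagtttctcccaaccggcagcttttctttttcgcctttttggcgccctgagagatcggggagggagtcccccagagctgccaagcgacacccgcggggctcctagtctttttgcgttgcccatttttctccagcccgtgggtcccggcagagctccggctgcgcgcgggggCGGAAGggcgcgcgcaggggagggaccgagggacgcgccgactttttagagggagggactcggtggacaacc
Batf: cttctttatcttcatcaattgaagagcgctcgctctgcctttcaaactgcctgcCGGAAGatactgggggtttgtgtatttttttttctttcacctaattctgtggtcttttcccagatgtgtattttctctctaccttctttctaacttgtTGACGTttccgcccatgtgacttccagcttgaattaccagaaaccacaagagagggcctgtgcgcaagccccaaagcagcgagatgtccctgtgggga
Fos: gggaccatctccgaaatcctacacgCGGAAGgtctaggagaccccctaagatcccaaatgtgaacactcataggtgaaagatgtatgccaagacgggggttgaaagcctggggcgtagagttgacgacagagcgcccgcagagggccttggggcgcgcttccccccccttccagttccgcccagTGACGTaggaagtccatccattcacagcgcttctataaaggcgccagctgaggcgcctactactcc
A promoter window was found for 9 of the 10 members, all but Fosl1. The AP-1 site TGANTCA, to which these proteins bind, was in 0 of the 9 windows and in 6.75% of 32851 windows of the same length over all genes. The full element TGACGTCA was likewise in 0 of 9, against 1.55% of all windows, as was the CArG box bound by the serum response factor, against 1.47%. The composite elements of BATF with IRF factors, TTTC placed 4 bases ahead of TGANTCA and GAAA directly ahead of it, which each hold the AP-1 site, were in 0 of 9 windows and in 0.0974% and 0.1% of all windows. The ETS core was in 4 of 9 windows (Fos, Fosl2, Junb and Batf), against 13.6% of all windows. The short element TGACGT, a part of TGACGTCA that was searched after the other motifs had been counted, was in 3 of 9 (Fos, Batf and Atf3), against 6.47%. It began at base -66 in Fos, -98 in Batf and -8 in Atf3, counted from the annotated start. The TATA box TATAAA, also added later, was in 1 of 9 windows, at base -33 of Fos, against 12.4% of all windows. The windows of the 9 members held 46.4% to 76% G and C, with Batf3 at the top, and the median over all windows was 52.4%. These matches describe letters in a window, and no match says only that those letters are not in it.

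Batf3 was 3.46-fold higher in ILC3 and was the 1 member called, out of 9 that could be tested, at an edgeR adjusted p under 0.05; leaving out CD4 T replicate 1, CD4 T replicate 2 or any ILC3 library ended that call. Of 12747 genes tested, 13.7% were called, 6.46% higher and 7.21% lower in ILC3 (824 and 919 genes, and 384 and 1502 with library size alone as the scale), so the share of members called was near that background. At an unadjusted edgeR p under 0.05, 3 members were higher and 0 lower. DESeq2 and limma-voom each called 3 higher and 0 lower. The 3 were Batf3, Atf3 and Fosl2 in each case. Over all genes, 2030 of 12747 were higher and 2226 lower at an unadjusted edgeR p under 0.05. DESeq2 called 1931 of 17797 higher and 1951 lower, and limma-voom called 1317 of 12747 higher and 1402 lower. The 17797 genes had a DESeq2 p-value and include any that DESeq2 left without an adjusted p, which could not be called. The median log2 difference of the 9 tested members was 0.63, beside -0.10 for all tested genes. Among the 9, the ILC3 libraries all lay above the CD4 T libraries for 5 genes (Fosb, Fosl2, Batf, Batf3 and Atf3) and all below for 0, whereas 55% of all tested genes had groups that did not overlap, 25.5% with ILC3 above and 29.5% below. That separation depended on the scaling: on library size alone, an alternative added after the data were seen, ILC3 lay above for 2 of the 9 (Batf3 and Atf3) and below for 1 (Fos), beside 15% of all tested genes above and 40% below. Fosl1 had too few counts to be tested. Transcript levels are given in CPM, counts per 1000000 counts after TMM scaling, and log2 differences are ILC3 over CD4 T.

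**Figure D1:**
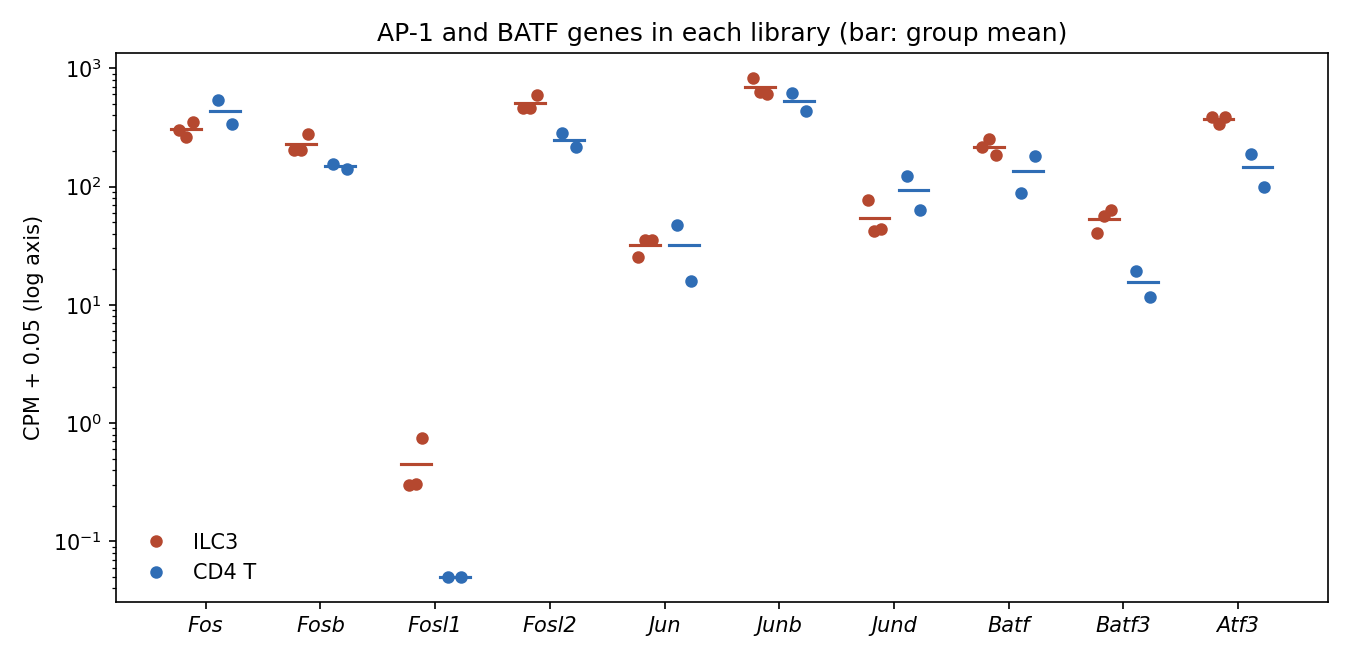
CPM plus 0.05 on a log axis for the 10 genes in each library, with ILC3 in red left of CD4 T in blue, points for single libraries and short bars for the means. On this TMM scale, Batf3, Atf3 and Fosl2 show ILC3 points clear of the CD4 T points (Fosl2 not on library size alone), Jun, Jund, Junb and Fos overlap, and Fosl1 lies near 0 in all libraries.

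Library contents differed between the groups beyond these genes. Totals ran from 20905412 to 25956023 counts in ILC3 and from 15123715 to 20165672 in CD4 T. Mitochondrial genes took 1.29% to 1.60% of counts in ILC3 and 2.03% to 2.87% in CD4 T, and antigen receptor segment genes took 6.55% to 29.8% in ILC3 and 10.2% to 17.0% in CD4 T. These segment genes include immunoglobulin genes, with their constant genes, as well as T cell receptor genes. Among the genes of the sort, the CD127 gene Il7r was higher in ILC3 (log2 2.52, edgeR adjusted p = 0.00795), while Cd4 (log2 -4.51, edgeR adjusted p = 0.00369), Ptprc, the CD45 gene (log2 -2.44, edgeR adjusted p = 0.00568), and Cd3d (log2 -2.54, edgeR adjusted p = 0.0162, 0.0646 without ILC3 replicate 1) were lower. The other CD3 genes were not called, Cd3e at log2 -1.30 (edgeR adjusted p = 0.233) and Cd3g at -1.26 (edgeR adjusted p = 0.254), and Cd3g stood at 331 ± 157 CPM over the 3 ILC3 libraries although these cells were sorted as CD3-negative. Markers of other cells were abundant in both groups. Of 7 plasmacytoid dendritic cell markers 6 were lower in ILC3, Ly6d being the most abundant. Their sums were 252 to 662 CPM in ILC3 and 4132 to 4888 CPM in CD4 T. Of 9 macrophage markers 8 were lower, with sums of 155 to 218 CPM in ILC3 and 2180 to 2943 CPM in CD4 T, and Lyz2 was the most abundant. Both CD8 T cell markers were lower, with sums of 0 to 1.23 CPM in ILC3 and 581 to 619 CPM in CD4 T, most of it Cd8b1. The B and plasma cell list, with 0 of 7 members called by edgeR (1 at an unadjusted p under 0.05, 1 by DESeq2 and 0 by limma-voom), summed to 18027 to 100640 CPM in ILC3 and 20925 to 34347 CPM in CD4 T, nearly all of it Jchain, while Pax5 had no count in any library. Epithelial markers summed to 7.54 to 14.9 CPM in ILC3 and 24.1 to 49.1 CPM in CD4 T, with 0 of 2 tested called by edgeR (1 lower at an unadjusted p under 0.05, 2 lower by DESeq2 and 0 by limma-voom), with Krt8 and Cdh1 at 0 in ILC3 and Epcam the most abundant. In such sorted bulk samples, fewer cells of a type and less RNA per cell cannot be told apart. The part of these cell types in the differences below was not tested.

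In the BATF subfamily, Batf3, known in mice as the factor that type 1 conventional dendritic cells need and also made by activated T cells, had 40.7, 56.2 and 63.5 CPM in ILC3 replicates 1 to 3 and 19.2 and 11.6 CPM in CD4 T replicates 1 and 2. Every ILC3 library lay above both CD4 T libraries, and the groups did not overlap. The ILC3 mean was 53.5 ± 11.7 CPM, against 15.4 ± 5.34 CPM for CD4 T (SD over 3 and 2 libraries), a log2 difference of 1.79 (SE 0.391, 95% interval 0.86 to 2.72, edgeR adjusted p = 0.0327). The difference kept its direction when any 1 library was left out, but the call did not hold: the edgeR adjusted p was 0.0642, 0.095 and 0.0855 without ILC3 replicates 1, 2 and 3, and it was 0.0504 and 0.0591 when CD4 T replicates 1 and 2 were left out. On the scale of library size alone, the log2 difference was 1.25 (edgeR adjusted p = 0.0839). Of 8 conventional dendritic cell markers, 5 were lower and 1, Zbtb46, higher in ILC3 (6 lower and 2 higher at an unadjusted p under 0.05, 6 and 1 by DESeq2, 6 and 1 by limma-voom), with sums of 48.8 to 78.9 CPM in ILC3 and 505 to 515 CPM in CD4 T, Cd209a being the most abundant. Xcr1, a marker of type 1 conventional dendritic cells, had 40.0, 19.4 and 23.8 CPM in ILC3, against 14.4 and 7.93 CPM in CD4 T, above in each ILC3 library as Batf3 was, and was not called (log2 1.31, edgeR adjusted p = 0.123). Clec9a and Itgax, which also mark dendritic cells, each had 1 count over the 3 ILC3 libraries, against 5640 and 4546 counts over CD4 T. Cadm1 had none in ILC3 and 978 counts over CD4 T. The part of dendritic cells in the Batf3 values was not tested.

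Batf, the closest relative of Batf3 and the member best known from T helper cells, had 215, 251 and 186 CPM in ILC3, against 87.5 and 182 CPM in CD4 T. The groups did not overlap, but CD4 T replicate 2 lay just under the lowest ILC3 library. With 0.5 CPM added to each value, as in all fold spreads between replicates below, the CD4 T libraries differed 2.07-fold from each other. Its log2 difference of 0.69 (SE 0.385, 95% interval -0.23 to 1.61) missed the threshold (edgeR adjusted p = 0.262). Leaving out CD4 T replicate 2 gave 1.33, which passed (edgeR adjusted p = 0.0351), and leaving out replicate 1 of CD4 T gave 0.26 (edgeR adjusted p = 0.622). Within a library, the ratio of Batf3 to Batf per exon length was 0.167, 0.197 and 0.301 in ILC3, against 0.193 and 0.0564 in CD4 T, so the ratios overlapped.

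By profile over the 5 libraries, the genes most like Batf3 were Tmcc1, 1110038B12Rik and Maff. Their Euclidean distances in centred log2 CPM were 0.17, 0.18 and 0.31, the smallest among 4928 tested genes with a mean of at least 20 CPM. Maff, a small MAF protein of the bZIP class, averaged 91.2 ± 11.7 CPM over the 3 ILC3 libraries and 29.0 ± 7.5 CPM over the 2 CD4 T libraries (SD).

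**Figure D2:**
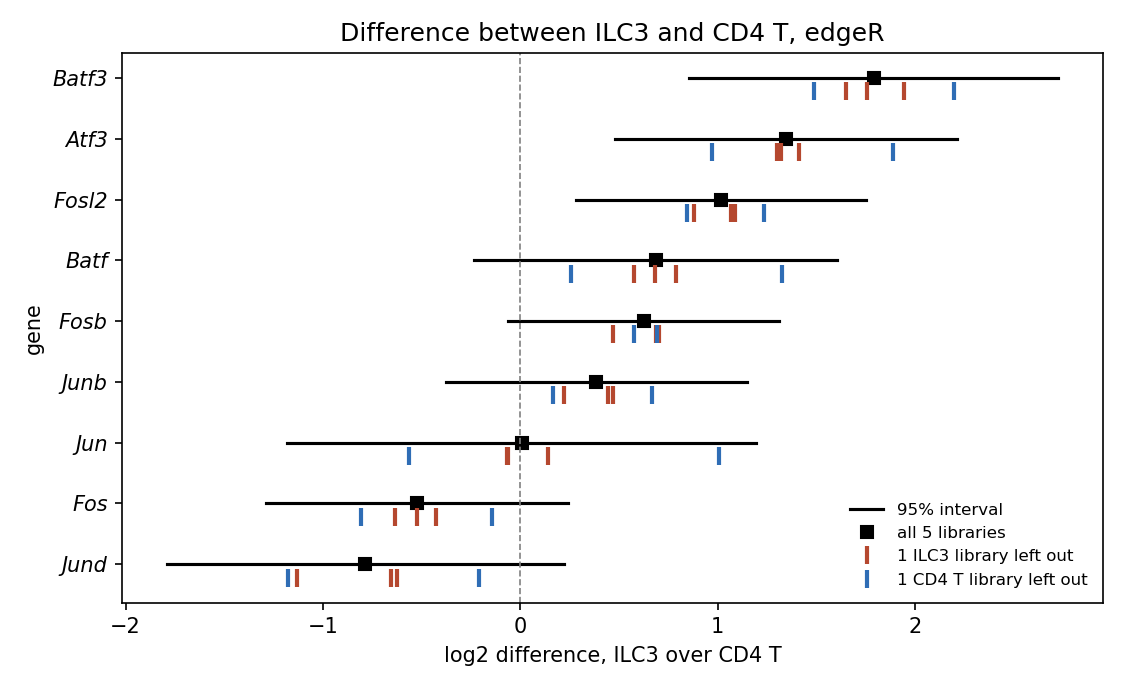
Log2 difference of ILC3 over CD4 T on the horizontal axis for the 9 tested members, with a square for the fit on all 5 libraries, a line for its 95% interval, and ticks for the fits that left out 1 ILC3 (red) or 1 CD4 T (blue) library. The intervals of Batf3, Atf3 and Fosl2 lie above 0, and the ticks of Jun lie on both sides of 0.

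Atf3, the stress-induced member, had 387, 338 and 384 CPM in ILC3, against 190 and 99.8 CPM in CD4 T. The ILC3 libraries lay close together, within 1.14-fold, and all above both CD4 T libraries, which differed 1.90-fold. It averaged 369 ± 27.3 CPM over the 3 ILC3 libraries and 145 ± 63.8 CPM over the 2 CD4 T libraries (SD), a log2 difference of 1.35 (SE 0.363, 95% interval 0.48 to 2.21) that missed the threshold over the whole table (edgeR adjusted p = 0.0542). The gene passed in limma-voom (adjusted p = 0.0205) and in DESeq2 (adjusted p = 0.00225). Leaving out CD4 T replicate 1 gave 1.89 (edgeR adjusted p = 0.0231) and leaving out CD4 T replicate 2 gave 0.97 (edgeR adjusted p = 0.0441), while leaving out an ILC3 library gave edgeR adjusted p values of 0.114 to 0.122. Over the 15 alternatives in processing, the adjusted p ran from 0.00225 to 0.221, and 7 of them called the gene.

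**Figure D3:**
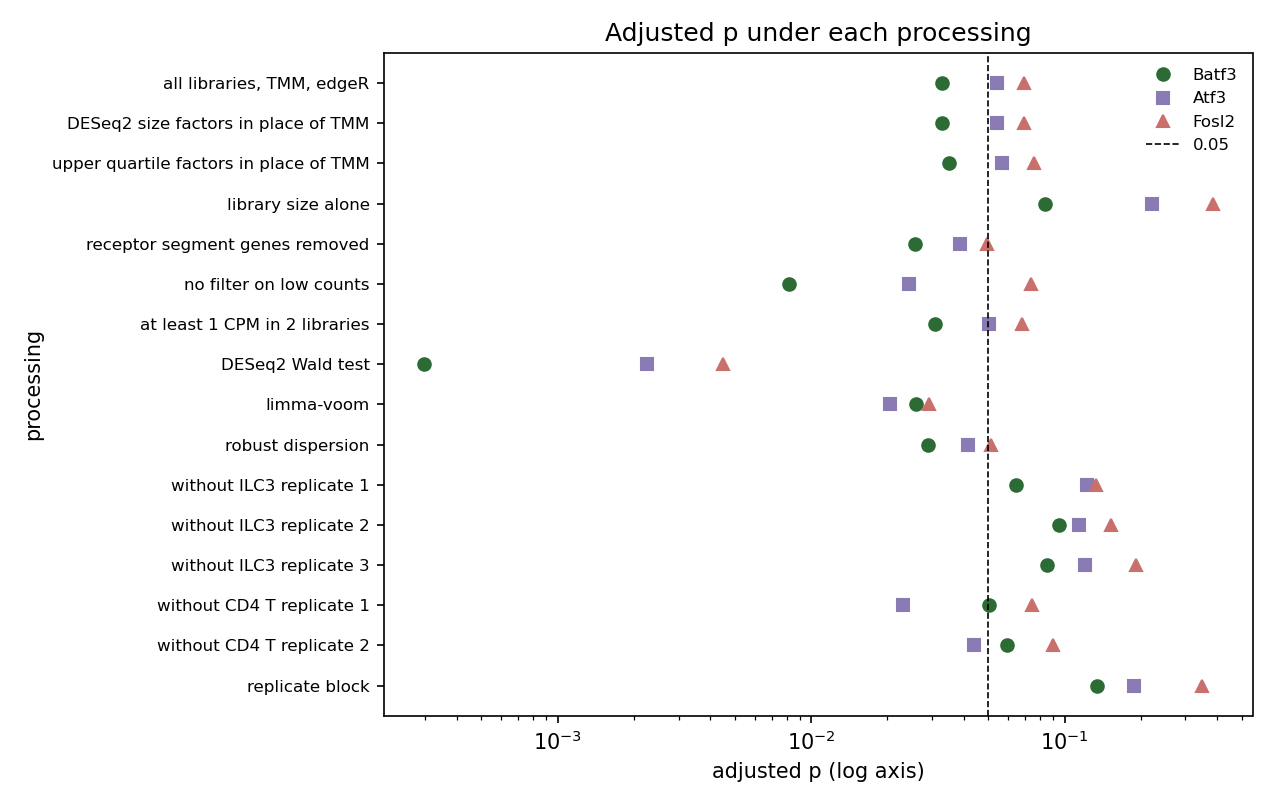
Adjusted p on a log axis for Batf3 (circles), Atf3 (squares) and Fosl2 (triangles) under the main processing and each of 15 alternatives, with a dashed line at 0.05. Batf3 lies left of the line in the top row and right of it in every row that leaves out a library, and the DESeq2 row has the smallest value of each gene.

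None of the FOS genes was called by edgeR. Fosl2, which encodes FRA-2, a FOS protein known in mice to restrain part of the Th17 programme, had 461, 460 and 598 CPM in ILC3, against 284 and 215 CPM in CD4 T. All ILC3 libraries lay above the CD4 T libraries, though not on library size alone, with an ILC3 mean of 506 ± 79.7 CPM (SD, n = 3) and a CD4 T mean of 250 ± 48.5 CPM (SD, n = 2). The log2 difference of 1.02 (SE 0.308, 95% interval 0.28 to 1.75) missed the threshold (edgeR adjusted p = 0.0692). It passed in limma-voom (adjusted p = 0.0291), in DESeq2 (adjusted p = 0.00447) and when receptor segment genes were removed before scaling (edgeR adjusted p = 0.0496).

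Fos, the founding immediate early gene of the group, had 299, 264 and 349 CPM in ILC3, against 537 and 336 CPM in CD4 T. ILC3 replicate 3 lay above CD4 T replicate 2, so the groups overlapped. The log2 difference was -0.52 (SE 0.320, 95% interval -1.29 to 0.24, edgeR adjusted p = 0.301), and it ran from -0.81 without CD4 T replicate 2 to -0.14 without CD4 T replicate 1. The interval reaches both sides of 0.

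Fosb, an immediate early FOS gene induced by the same stimuli as Fos, had 204, 205 and 276 CPM in ILC3, against 155 and 141 CPM in CD4 T. The ILC3 values were all higher, with a log2 difference of 0.63 (SE 0.287, 95% interval -0.06 to 1.31) that was not called (edgeR adjusted p = 0.181). Fosl1, which encodes FRA-1, was the member near the detection limit. It had 7, 4 and 12 counts in ILC3, against 0 and 0 in CD4 T, or 0.252, 0.256 and 0.701 CPM in ILC3. Against a floor of 3 counts over the CD4 T libraries together, its summed level in ILC3 was 5.55-fold higher. With counting error in the ILC3 counts, the lower 95% limit for Fosl1 was 3.52-fold. When no gene was filtered out, its edgeR adjusted p was 0.274. Ccdc85b overlaps Fosl1 on the opposite strand over 2767 bases and held 36 to 154 counts in ILC3 and 139 to 178 in CD4 T; strand was not stated for the counting, so reads of the pair cannot be told apart.

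Within a library, values do not depend on the scaling between libraries. Per exon length, Fos exceeded Fosl2 by 2.68, 2.36 and 2.40 times in ILC3, and by 7.78 and then 6.42 times in CD4 T. The ratio was lower in every ILC3 library, and the pair was chosen after the values were seen. Of the summed FOS level, Fos made up 61.3%, 58.3% and 58.2% in ILC3, against 80.8% and 76.1% in CD4 T, while Fosl2 made up 22.9%, 24.6% and 24.3% in ILC3, against 10.4% and 11.9% in CD4 T.

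The 3 JUN genes encode the partners of FOS and BATF proteins on DNA, and none was called by edgeR, at an unadjusted p under 0.05, by DESeq2 or by limma-voom. Junb, a JUN protein that pairs with BATF in Th17 cells, had 828, 635 and 606 CPM in ILC3, against 620 and 435 CPM in CD4 T, and the groups overlapped. Its log2 difference was 0.38 (SE 0.320, 95% interval -0.38 to 1.15, edgeR adjusted p = 0.449), and it was -0.086 with library size alone. Prdx2, a peroxiredoxin gene, overlaps Junb by 351 bases on the opposite strand and had 9227, 6394 and 6878 counts in ILC3, against 3297 and 3245 in CD4 T.

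Jund, the JUN gene expressed without stimulation in many cells, had 76.7, 41.9 and 44.1 CPM in ILC3, against 124 and 62.8 CPM in CD4 T. ILC3 replicate 1 lay between the CD4 T libraries. The log2 difference was -0.78 (SE 0.421, 95% interval -1.79 to 0.22, edgeR adjusted p = 0.244), from -1.18 without CD4 T replicate 2 to -0.21 without CD4 T replicate 1. Jun, the founding JUN gene, had 25.4, 35.4 and 35.2 CPM in ILC3, against 47.7 and 15.9 CPM in CD4 T. The CD4 T libraries differed 2.94-fold, with 0.5 CPM added to each value, and enclosed all ILC3 libraries. Its log2 difference of 0.01 (SE 0.498, 95% interval -1.18 to 1.20, edgeR adjusted p = 0.994) became 1.01 without CD4 T replicate 1 and -0.56 without CD4 T replicate 2, so its sign changed with the CD4 T library that was used. Antisense genes overlap Jun and Jund in GENCODE, and their reads cannot be told from those of the JUN genes either.

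Of the summed JUN level per exon length, Junb made up 87.0%, 88.4% and 87.6% in ILC3, against 75.1% and 81.6% in CD4 T. Jund made up 11.1%, 8.05% and 8.78% in ILC3, against 20.7% and 16.2% in CD4 T. Junb was thus the main JUN transcript in every library, with a higher share in each ILC3 library. Jun never passed 4.17%.

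Levels of different genes were set against each other as CPM per kilobase of exon. Junb was the highest of the 10 in all 5 libraries, at 300 ± 52.4 CPM per kilobase over the 3 ILC3 libraries and 229 ± 56.7 over the 2 CD4 T libraries (SD). In ILC3 it was followed by Atf3 at 171 ± 12.7, Batf at 155 ± 23.4 and Fos at 129 ± 18.0 CPM per kilobase. The libraries of these 3 overlapped between neighbours, while those of Junb all lay above them. The order of Atf3 and Batf depends on the length used. The union of exons is 1406 bases for Batf and 2154 for Atf3, and the longest transcript is 955 and 1984 bases. Fosl2 stood at 52.3 ± 8.24, Fosb at 36.6 ± 6.61, Batf3 at 33.5 ± 7.31, Jund at 32.5 ± 11.7 and Jun at 10.04 ± 1.79 CPM per kilobase in ILC3; Fosb, Batf3 and Jund were not separated by their spread. In CD4 T, Fos was next after Junb at 186 ± 60.4, then Batf at 95.8 ± 47.5, Atf3 at 67.3 ± 29.6 and Jund at 55.9 ± 25.9 CPM per kilobase. The CD4 T order closed with Fosl2 at 25.8 ± 5.01, Fosb at 23.7 ± 1.51, Jun at 9.97 ± 7.04 and Batf3 at 9.66 ± 3.34 CPM per kilobase. Fosl1 was last in every library.

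Summed over the 10 genes, the level was 979, 876 and 906 CPM per kilobase in ILC3, against 803 and 603 in CD4 T. On library size alone the sums were 1046, 652 and 742 CPM per kilobase in ILC3, against 1006 and 739 in CD4 T, so the groups overlapped and the ILC3 mean was the lower one; the shares that follow do not depend on the scaling. ATF3 made up 18.6% ± 0.919 of this sum in ILC3 (SD, n = 3) and 9.34% ± 2.33 in CD4 T (SD, n = 2). FOS genes made up 23.8% ± 3.77 in ILC3 and 33.2% ± 2.82 in CD4 T. For both of these subfamilies the libraries of the groups did not overlap. JUN genes made up 37.0% ± 4.67 in ILC3 and 41.5% ± 4.36 in CD4 T, and BATF genes 20.5% ± 3.39 in ILC3 and 16.0% ± 9.51 in CD4 T, where the replicates were 9.24% and 22.7%. The JUN and BATF shares overlapped between groups. These shares are a description with no test.

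**Figure D4:**
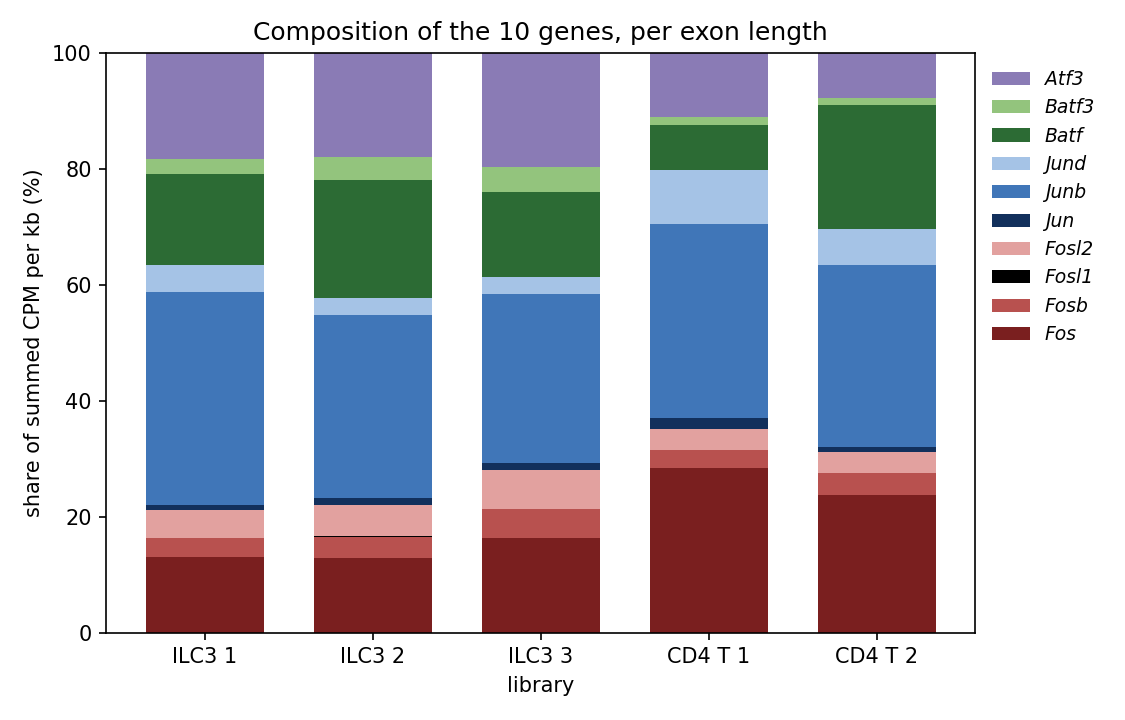
Stacked bars of the share of each gene in the summed CPM per kilobase of exon of the 10 genes, in percent, for the 3 ILC3 libraries and then the 2 CD4 T libraries. Junb (mid blue) is the widest band in each bar, the Fos band at the base is 12.8% to 16.4% in ILC3 and 23.7% to 28.4% in CD4 T, and the Atf3 band at the top is 17.9% to 19.7% in ILC3 and 7.69% to 11.0% in CD4 T.

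The members also differed in how far replicates spread, taken with 0.5 CPM added to each value. Within ILC3 the highest library exceeded the lowest by 1.14-fold for Atf3 and by 1.82-fold for Jund, with the other tested members between them, and the median tested gene with a mean of at least 5 CPM had 1.58-fold. Within CD4 T the spread was smallest for Fosb, at 1.09-fold, and largest for Jun, at 2.94-fold, against a median of 1.57-fold.

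On the genome, 4 of the members lie in pairs. Batf3 (chromosome 1, 191098414 to 191108943) and Atf3 (chromosome 1, 191170296 to 191183333) are separated by 61352 bases, with Fam71a between them, which was not called (log2 0.32, edgeR adjusted p = 0.899) at a level of 1.16 ± 0.928 CPM over the 3 ILC3 libraries and 0.924 ± 0.523 over the 2 CD4 T libraries (SD). Fos (chromosome 12, 85473890 to 85477274) and Batf (chromosome 12, 85686720 to 85709087) are separated by 209445 bases, with Jdp2 between them, another bZIP factor that can repress AP-1. Jdp2 had 9.53 ± 2.84 CPM over the 3 ILC3 libraries and 27.1 ± 17.2 CPM over the 2 CD4 T libraries (SD), a log2 difference of -1.51 (edgeR adjusted p = 0.108). Fosl2 is on chromosome 5 (32136472 to 32157840), Fosb on chromosome 7 (19302696 to 19310118), Fosl1 on chromosome 19 (5447698 to 5455938) and Jun on chromosome 4 (95049036 to 95052222). Junb (84976909 to 84978748) and Jund (70697739 to 70700616) are both on chromosome 8. All positions are in GRCm38.

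Genes around AP-1 were read from lists. For the genes named here, a pair of values in parentheses is the log2 difference and its edgeR adjusted p, and a single value given for a left-out library is the adjusted p unless it is marked log2. Among partners at composite DNA elements, 4 of 12 were lower in ILC3 and 0 higher (edgeR; 8 lower and 0 higher at an unadjusted p under 0.05, 5 and 0 by DESeq2, 4 and 0 by limma-voom), with a median log2 of -0.91. They were Irf4, the usual IRF partner of BATF in T cells, at 6.59 ± 3.93 CPM over the 3 ILC3 libraries and 59.0 ± 10.4 CPM over the 2 CD4 T libraries (SD), a log2 difference of -3.17 (edgeR adjusted p = 0.0167), and Irf8, the partner of BATF3 in dendritic cells (-2.26, 0.0257), with Ikzf1 (-2.05, 0.0186) and Prdm1 (-2.19, 0.0457). The 2 IRF partners were lower in ILC3, where Batf3 was higher. Plasmacytoid dendritic cell markers (252 to 662 CPM in ILC3, 4132 to 4888 in CD4 T) and macrophage markers (155 to 218 and 2180 to 2943) also summed lower there. The part of such cells in the Irf4 and Irf8 values was not tested. Irf4 was not called when ILC3 replicate 2 (0.0654) or CD4 T replicate 1 (0.0743) was left out. Irf8 and Prdm1 lost their calls without any 1 ILC3 library (0.0549 to 0.0688 and 0.0753 to 0.0937) or CD4 T replicate 1 (0.114 and 0.213), and Ikzf1 without ILC3 replicates 1 and 2 (0.0717 and 0.0679) or CD4 T replicate 1 (0.0729).

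Of 32 tested bZIP factors outside the group, 2 were higher, 3 lower and 27 not called by edgeR (7 and 8 at an unadjusted p under 0.05, 7 and 6 by DESeq2, 6 and 5 by limma-voom), with a median log2 of -0.64. Crem, which encodes cyclic AMP responsive repressors, averaged 8379 ± 283 CPM over the 3 ILC3 libraries and 1262 ± 801 CPM over the 2 CD4 T libraries (SD), a log2 difference of 2.73 (edgeR adjusted p = 0.0194); leaving out CD4 T replicate 2 gave log2 3.60. Maff was higher (1.65, 0.0227), while Bach1, which binds AP-1-like sites with MAF proteins, was lower (-1.79, 0.0269). Without any 1 ILC3 library, Crem (0.0623 to 0.069), Maff (0.0639 to 0.0752) and Bach1 (0.0712 to 0.0872) lost their calls, as did Maff with library size alone (0.0788). Bach1 also lost it without CD4 T replicate 1 (0.104).

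Among 31 tested MAP kinase cascade genes, which carry signals to AP-1, 2 were higher, 5 lower and 24 not called by edgeR (4 and 11 at an unadjusted p under 0.05, 3 and 9 by DESeq2, 1 and 9 by limma-voom), with a median log2 of -0.78. The JNK gene Mapk10 was 368-fold higher in ILC3 against a floor of 3 counts in CD4 T (edgeR adjusted p = 0.0127, and 0.062 in limma-voom). It had 756, 99 and 669 counts in ILC3 and none in CD4 T. The other JNK genes, Mapk8 (log2 0.18, 0.857) and Mapk9 (0.84, 0.14), were not called. Rps6ka3 was higher (5.2, 0.0309), and Rps6ka1 (-3.99, 0.0122) and Map4k1 (-2.76, 0.0163) were lower. Rps6ka3 lost its call without any 1 ILC3 library (0.0674 to 0.0819) and stood at log2 4.25 and 8.31 without CD4 T replicates 1 and 2. Map4k1 lost its call without any 1 ILC3 library (0.0537 to 0.0642) or CD4 T replicate 1 (0.0861, log2 -1.99), as did Rps6ka1 without CD4 T replicate 1 (0.0615).

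Immediate early genes outside the bZIP family had 2 of 20 higher and 6 lower by edgeR (6 and 9 at an unadjusted p under 0.05, 6 and 9 by DESeq2, 5 and 7 by limma-voom), with a median log2 of -0.41. Klf2 (-3.82, edgeR adjusted p = 0.00634), the phosphatase gene Dusp2 (-5.15, 0.0118) and the mRNA decay factor gene Zfp36 (-2.49, 0.0144) were lower and Klf4 was higher (1.57, 0.0238). Dusp2 stood at log2 -3.95 without CD4 T replicate 1 (0.0578, not called) and at log2 -5.79 without CD4 T replicate 2. Zfp36 (0.0559 to 0.0629) and Klf4 (0.0704 to 0.0797) lost their calls without any 1 ILC3 library, Klf4 also with library size alone (0.113), and Zfp36 stood at log2 -1.71 without CD4 T replicate 1. Heat shock genes known from cell handling had 2 of 10 higher and 2 lower, with a median log2 of -0.29 and sums of 1567 to 2054 CPM in ILC3 and 885 to 1196 CPM in CD4 T. Dnaja1 (2.62, 0.0116) and Hspa8 (3.37, 0.0335) were higher and Hspa1a (-3.14, 0.045) and Hspa1b (-2.90, 0.0449), near-identical copies between which counting could split reads, were lower; all but Dnaja1 lost their calls without any 1 ILC3 library (0.0685 to 0.0996), and Hspa1a and Hspa1b without CD4 T replicate 1 (0.265 and 0.248, log2 -1.97 and -1.82). Hspa8 stood at log2 2.61 and 5.12 without CD4 T replicates 1 and 2. Without Dnaja1 the heat shock sums were 675, 719 and 855 CPM in ILC3, against 1078 and 680 CPM in CD4 T, so the groups overlapped. The part of cell handling in the values of Atf3 and Fosb was not tested.

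Of 14 tested genes known to be driven through AP-1 or BATF elements, 3 were higher and 3 lower, with a median log2 of 0.21. Csf2, which encodes GM-CSF, was higher (6.07, 0.000803), and Il10 (-6.36, 0.00156) and the inhibitory receptor gene Ctla4 (-2.36, 0.0195) were lower. Ctla4 lost its call without ILC3 replicates 1 and 3 (0.072 and 0.0696) and stood at log2 -1.73 without CD4 T replicate 2. Il2, singled out after its values were seen because the series is named for interleukin-2, had 147, 130 and 277 counts in ILC3, against 6 and 62 in CD4 T, and was not called (2.47, 0.205). The cyclin gene Ccnd1 had 4 counts over ILC3 and 108 and 29.2 CPM in CD4 T (edgeR adjusted p = 0.00298). Regulators of AP-1 protein and mRNA turnover had 1 of 12 lower and 0 higher by edgeR (4 and 4 at an unadjusted p under 0.05, 4 and 3 by DESeq2, 1 and 3 by limma-voom), Trib1 (-3.11, 0.00767, and log2 -2.40 without CD4 T replicate 1).

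**Figure D5:**
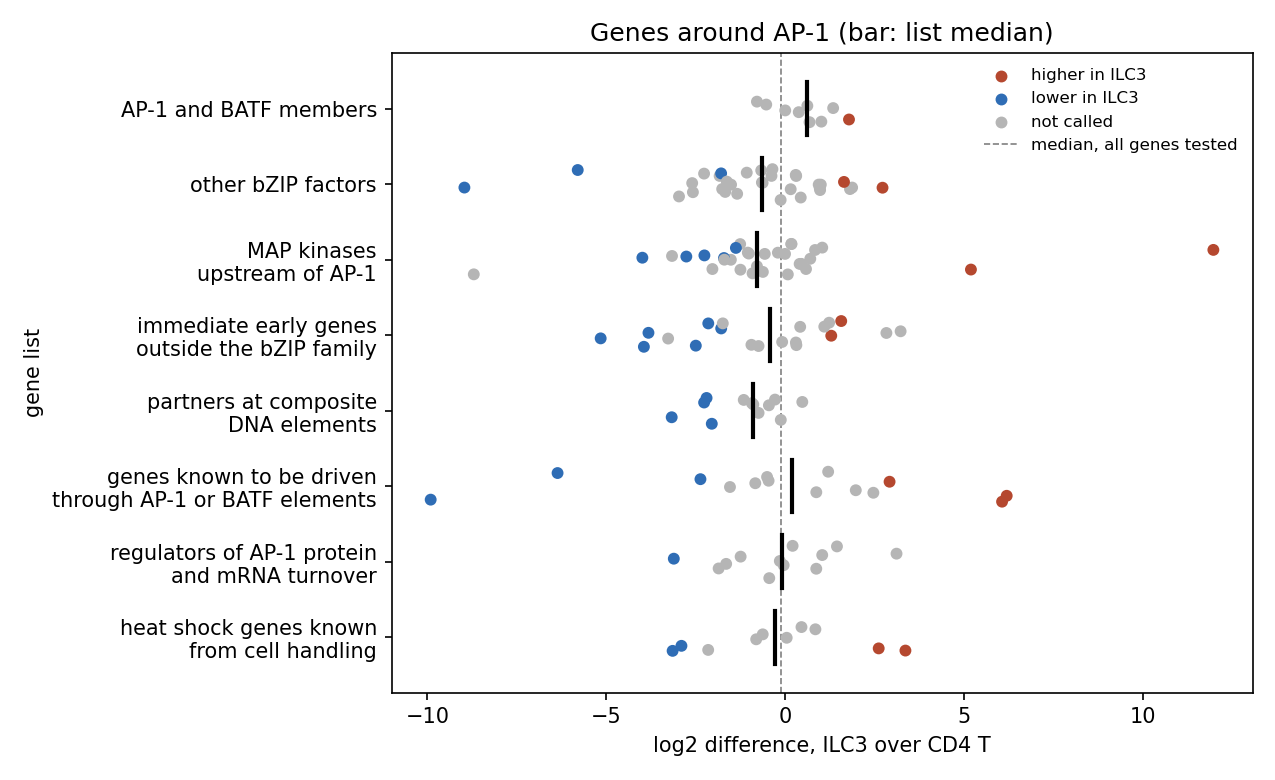
Log2 difference of ILC3 over CD4 T for each tested gene of the 10 members and of 7 lists around AP-1, with red points higher, blue points lower and grey points not called, a black bar at each list's median and a dashed line at the median of all genes tested (-0.10). The members spread from -0.78 to 1.79, and the partners at composite elements have 4 blue points and no red one; fitted values of genes with no count in a group, such as Mapk10, have no measured size.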

How the data were processed

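Libraries were made from RNA of sorted cells with the Clontech SMARTer kit for low input, per the labels' protocols. The authors deposited whole-number counts per NCBI gene with no normalization; CASAVA 1.8.2, STAR 2.3.0 and build mm10 are named in the submitters' processing notes, while no counter, annotation or strandedness is named in what was used here. Of 27179 identifiers, 25275 matched RefSeq (GRCm38.p6, the assembly behind mm10); the other 1904 stayed in every fit. Counts were filtered with filterByExpr, scaled by TMM and compared by the edgeR 4.0.16 quasi-likelihood F test in R 4.3.3, ILC3 over CD4 T. The fit had no covariate and left 3 residual degrees of freedom. Benjamini-Hochberg adjustment ran over 12747 genes, and calls were made under 0.05. SE is the log2 difference divided by the square root of F. Exon lengths are unions of exons in GENCODE (GRCm38). Floors of 3 counts cover only the counting error of the group with no count. No pair of libraries agreed within sampling noise. Alternatives were DESeq2 1.42.0 (size factors, Wald test), limma-voom (limma 3.58.1), other scalings and filters, robust dispersion, each library left out, and a replicate block. The code was tested on simulated data. The members and lists were chosen with earlier results of these data known. Named genes are all members, up to 4 called genes of smallest p per list around AP-1, the most abundant marker of each other cell type, the sort genes, and the 3 profiles nearest to a called member. Where the 4 of smallest p all went the same way, the last gave way to the best called gene of the other direction, as with Klf4. Xcr1, Zbtb46, Clec9a, Itgax, Cadm1, Pax5, Krt8, Cdh1, Mapk8, Mapk9 and Il2 fall outside this rule and were chosen after their values were seen, and Jdp2, Fam71a, Prdx2 and Ccdc85b are named for their positions beside members. A gene that this rule names is not reported here.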

Additional observations from a re-analysis of the deposited data

How the results depend on the processing

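Batf3 was called in 8 of 15 alternatives and kept a positive log2 difference in all of them (1.25 to 2.20). Between 0 and 2 members were higher when 1 library was left out, 0 with library size alone, 3 with receptor segment genes removed, 2 with no filter on low counts, 3 by DESeq2, 3 by limma-voom and 2 with robust dispersion; 0 were lower in each. Over all genes, 269 to 1712 were higher and 306 to 960 lower when 1 library was left out. The numbers higher and lower were 384 and 1502 with library size alone, 1931 and 1951 by DESeq2 and 1317 and 1402 by limma-voom, and 1250 were higher with no filter. Library size alone moved the median of all tested genes to -0.60, in place of -0.10, and the share of calls that were higher fell with it.

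The sign of Jun turned to -0.021 with upper quartile factors, and to -0.53 with library size alone, and with 1 library left out it ran from -0.56 (without CD4 T replicate 2) to 1.01 (without CD4 T replicate 1), with -0.065 and -0.064 without ILC3 replicates 2 and 3. Junb turned to -0.086 with library size alone, and Cd3g ran from -1.98 without CD4 T replicate 1 to 0.25 without CD4 T replicate 2. The cause was not tested. In alternatives added after the data were seen, the ILC3 mean minus the CD4 T mean of the summed level of the 10 genes was -59.3 CPM per kilobase with library size alone, in place of 217, and that of the heat shock sum was -130 CPM without Dnaja1, in place of 703. With the longest transcript as length, the ATF3 share in ILC3 was 15.9%. Leaving out 1 library gave shares in ILC3 of 18.1% to 19% for ATF3.

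Libraries of the same replicate number were not shown to be paired: the deviations of ILC3 and CD4 T replicates 1 correlated at -0.0161 and those of replicates 2 at -0.0255 across genes. The 2 CD4 T libraries deviate from their mean as mirror images, so unmatched numbers gave the same values with the sign reversed (0.0161 and 0.0255). These correlations therefore cannot decide whether the libraries were paired. With the replicate number as a block, 0 members were higher and 0 lower, and 215 genes were higher and 305 lower over the table. With 2 CD4 T libraries, leaving 1 out assumes that the other varies like ILC3.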
